A study of Mus musculus with 15 samples.

Results

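The nuclear genes for subunits of the oxidative phosphorylation complexes were followed across 15 RNA-seq libraries of mouse E14 cells in 5 groups. A gene was a member when it was protein-coding, lay in the nuclear genome and had a symbol of the families Ndufa, Ndufb, Ndufc, Ndufs or Ndufv with a number, Sdha to Sdhd, Uqcr, Cox4 to Cox8 or Atp5. This rule gave 85 of the 55471 gene IDs in the count tables, of which 37 belong to complex I, 4 to complex II, 8 to complex III, 18 to complex IV and 18 to complex V. The 85 IDs carry 84 symbols, because Atp5o stands for 2 IDs, and no expression value entered the choice.

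Each group held 3 libraries, and the labels call them biological replicates without saying how they were grown, so a p-value measures only the spread between these samples. Embryoid bodies (EBs), aggregates of stem cells that differentiate in suspension, were grown for 6 days in serum from an NSD1-dTAG knock-in line, with 500 nM dTAG-13 for all 6 days or without it. The same line was also sampled as nontreated mouse embryonic stem cells (mESCs) in 2i/LIF, a medium whose MEK and GSK3 inhibitors and LIF cytokine keep cells undifferentiated. Wild-type (WT) E14 mESCs in 2i/LIF had received 500 nM dTAG-13 for 72 h or nothing. NSD1 is a histone H3K36 methyltransferase, and dTAG-13 is a small molecule that directs a protein carrying the degron tag to degradation. Whether the knock-in line is 1 clone is not given in the sources used here. Neither WT EBs nor mESCs of the tagged line under degrader were analysed here. Because the drug acts on the protein, Nsd1 RNA could not check the labels: it averaged 59.7 ± 12.8 in dTAG-13 EBs and 49.1 ± 6.79 in nontreated EBs (per-length level, SD, n = 3 each; log2 difference 0.26, adjusted p = 0.351 by edgeR's quasi-likelihood test).

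The 5 complexes sit in the inner mitochondrial membrane. Complexes I and II take electrons from NADH and succinate, complex III passes them from ubiquinol to cytochrome c, complex IV reduces oxygen, and complex V, the ATP synthase, uses the resulting proton gradient to make ATP. Their subunits come from both the nuclear and the mitochondrial genome, apart from complex II, which is wholly nuclear, and several nuclear subunits exist as isoforms that are restricted to muscle, testis or other tissues. Naive mESCs are known to use respiration beside glycolysis, and the balance between them shifts as cells leave that state.

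Levels are given as counts per kilobase of merged exon scaled to a common total per library, called TPM-like below, which allows genes to be set beside each other. Differences between groups are log2 fold changes from edgeR's quasi-likelihood fit of raw counts with TMM factors, with their standard errors (SE), and a gene was called changed at a Benjamini-Hochberg adjusted p below 0.05 over all genes tested. Library totals ran from 18704591 to 29103958 gene counts.

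In each group 1 library stood apart from the other 2. These were library 3 of dTAG-13 EBs, library 3 of nontreated EBs, library 1 of nontreated NSD1-dTAG mESCs, library 3 of dTAG-13 WT mESCs and library 1 of nontreated WT mESCs. Their reads came from shorter genes, with a read-weighted exon length of 4.987 to 5.496 kb, against 5.71 to 5.78 kb in the other 6 mESC libraries and 5.81 to 5.93 kb in the other 4 EB libraries. The members are short: their median merged exon length was 1522.5 bases, against 3495 over all protein-coding genes. The 17 tested members under 1 kb were each higher in these 5 libraries than in the mean of the other 2 of the group, all 17 each time. The median log2 excess was 0.78 in the NSD1-dTAG mESC library and 0.30 to 0.37 in the others. Members over 2 kb were mostly higher too, 25 to 27 of 29, with medians of 0.19 to 0.46. Over all protein-coding genes above 2 kb the medians were -0.13 to -0.02. The part of gene length in the members' excess was not tested. Counts of calls below are therefore also given without these libraries. Those fits hold 2 libraries per group, which were more alike than either was to the library left out. Their p-values thus rest on a spread made smaller by that choice. In dTAG-13 EBs over nontreated EBs, for example, they called 10.7% of all genes higher, against 3.98% with all libraries.

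The members' share of gene counts overlapped among the 3 mESC groups and was lower in every EB library. They took up 1.02 ± 0.130% of gene counts in dTAG-13 EBs, 1.06 ± 0.118% in nontreated EBs, 1.53 ± 0.308% in nontreated NSD1-dTAG mESCs, 1.46 ± 0.139% in dTAG-13 WT mESCs and 1.43 ± 0.101% in nontreated WT mESCs (SD, n = 3 each). Their summed TPM-like level was 18206, 18292 and 21487 in the dTAG-13 EB libraries, 18650, 19446 and 21975 in nontreated EBs and 33070, 25298 and 24801 in nontreated NSD1-dTAG mESCs. It was 25371, 25427 and 28542 in dTAG-13 WT mESCs and 27655, 24988 and 24967 in nontreated WT mESCs. All 6 EB libraries lay below all 9 mESC libraries, and the 2 EB groups overlapped each other, as did the 3 mESC groups.

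**Figure D1:**
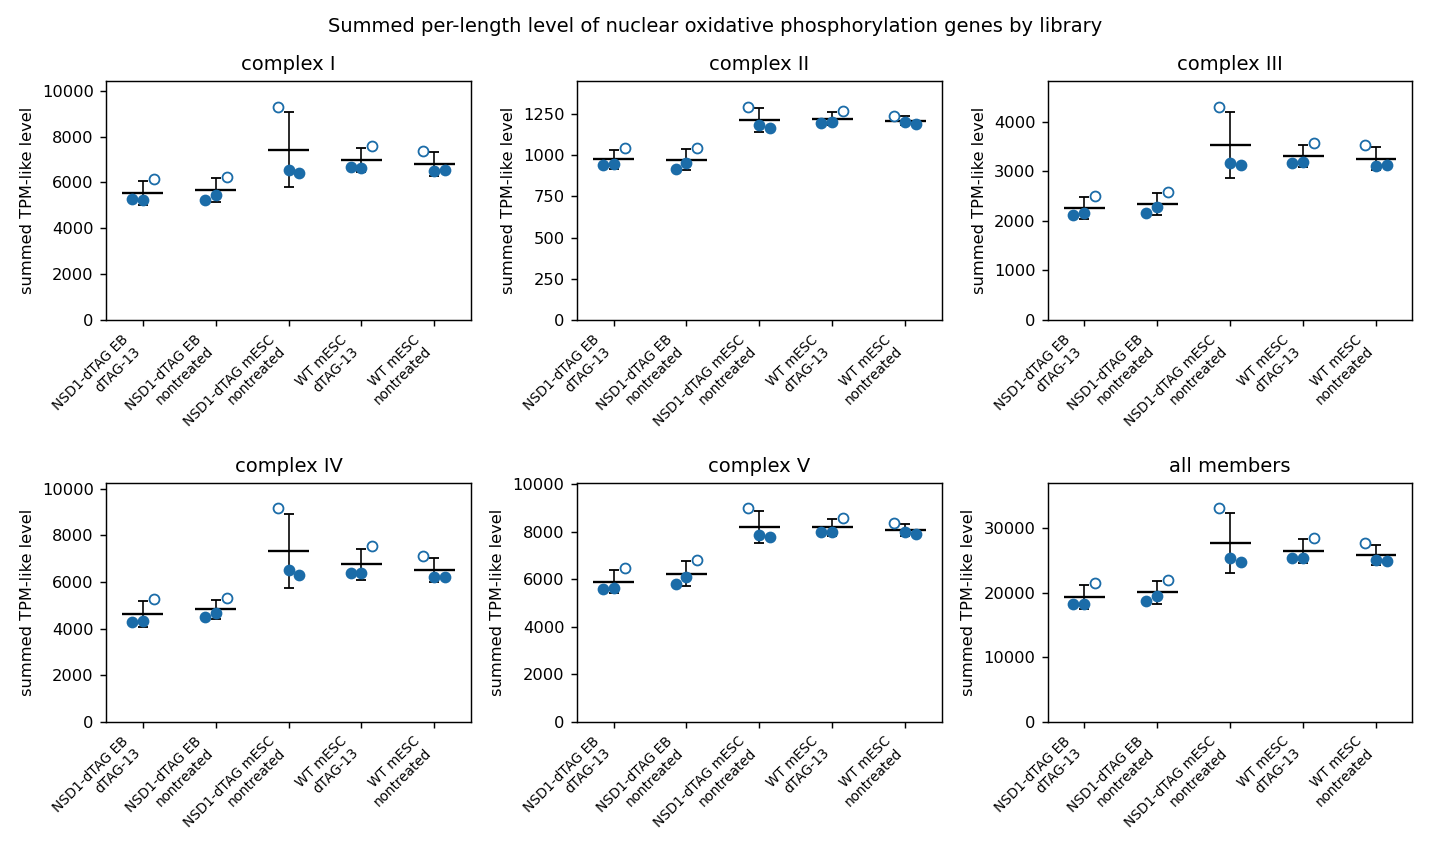
Summed TPM-like level of the members of each complex (y axis) in every library of the 5 groups (x axis); points are libraries, open points the 5 libraries that stood apart, horizontal lines means and error bars SD (n = 3). For all members together the 6 EB libraries lie between 18206 and 21975 and the 9 mESC libraries between 24801 and 33070.

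Levels within a complex spread widely. The mean TPM-like level over the 5 groups was highest for Atp5b, the catalytic beta subunit of the ATP synthase, at 1928, followed among the leading genes of each complex by Cox4i1 at 1067, Uqcr10 at 586, Ndufa4 at 475 and Sdhd at 451. Ndufa4 is named for complex I, although its protein has been found with complex IV. At the low end stood Sdhc at 158 in complex II and Uqcrq at 209 in complex III. Atp5l, subunit g of the ATP synthase, was at 2.23, Ndufs5 of complex I at 0.428 and the muscle isoform Cox8b at 0.0235. Of the 50-base windows of Atp5l transcripts 68.5% also occur in another gene, and of those of Ndufs5 21.7%, so reads of these genes may have been assigned elsewhere or left out, which was not tested.

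Of the 85 members, 79 passed the count filter in every comparison except that of dTAG-13 in WT mESCs, where 78 passed. Ndufs5, Cox6a2, Cox7b2, Cox8b, Cox8c and the other Atp5o ID, ENSMUSG00000116933, never passed, and Cox4i2 failed only in that comparison. ENSMUSG00000116933 had 0 counts in all 15 libraries. Exons of 30 members overlap those of another gene, in 26 cases on the opposite strand and in 5 on the same strand, and the counted strand is not stated. Reads of such neighbours may therefore be part of a member's count; 15 members had a neighbour with at least 1/5 of their own mean count.

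The largest difference concerned EB formation, which asks how the genes change when NSD1-dTAG mESCs differentiate for 6 days without degrader. Medium, culture form and time differ together between the 2 groups and cannot be told apart, nor can fewer cells of a type be told apart from less RNA per cell in such bulk samples. Of the 79 members tested, 57 were lower and 2 higher in nontreated EBs than in nontreated NSD1-dTAG mESCs, and 20 were not called. Of all 15193 genes tested, 26.3% were called lower and 33.1% higher. The median log2 fold change was -0.72 over the members, against 0.02 over all genes tested, and 76 of the 79 members lay below 0. The lower calls came from all 5 complexes.

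Several measures moved with this difference. On the TPM-like scale the median over all genes was 0.24, and with library totals in place of TMM factors 0.16, so that the members' medians there were -0.45 and -0.57. With library totals 46 members were lower and 2 higher, against 19.9% and 37.2% of all genes tested. Other short genes were lower as well: protein-coding genes under 1500 bases that were neither members nor ribosomal protein genes had a summed TPM-like level 23.7% lower in nontreated EBs, and the members' sum was 27.8% lower. Whether the members' difference is part of that of short genes was not tested; a fit with a gene-length offset called 63 members lower and 3 higher, with a median of -0.64, against 33.3% of all genes in either direction. Without the libraries that stood apart 70 of 79 were lower and 3 higher, against 34.8% and 38.4% of all genes tested, and the median was -0.56. Leaving out 1 nontreated EB library mattered most for the count, which was 31 lower without library 1, against 20.9% of all genes, and 31 without library 2, against 20.3%. For the median, leaving out NSD1-dTAG mESC library 1 mattered most. Without that library it was -0.47.

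**Figure D2:**
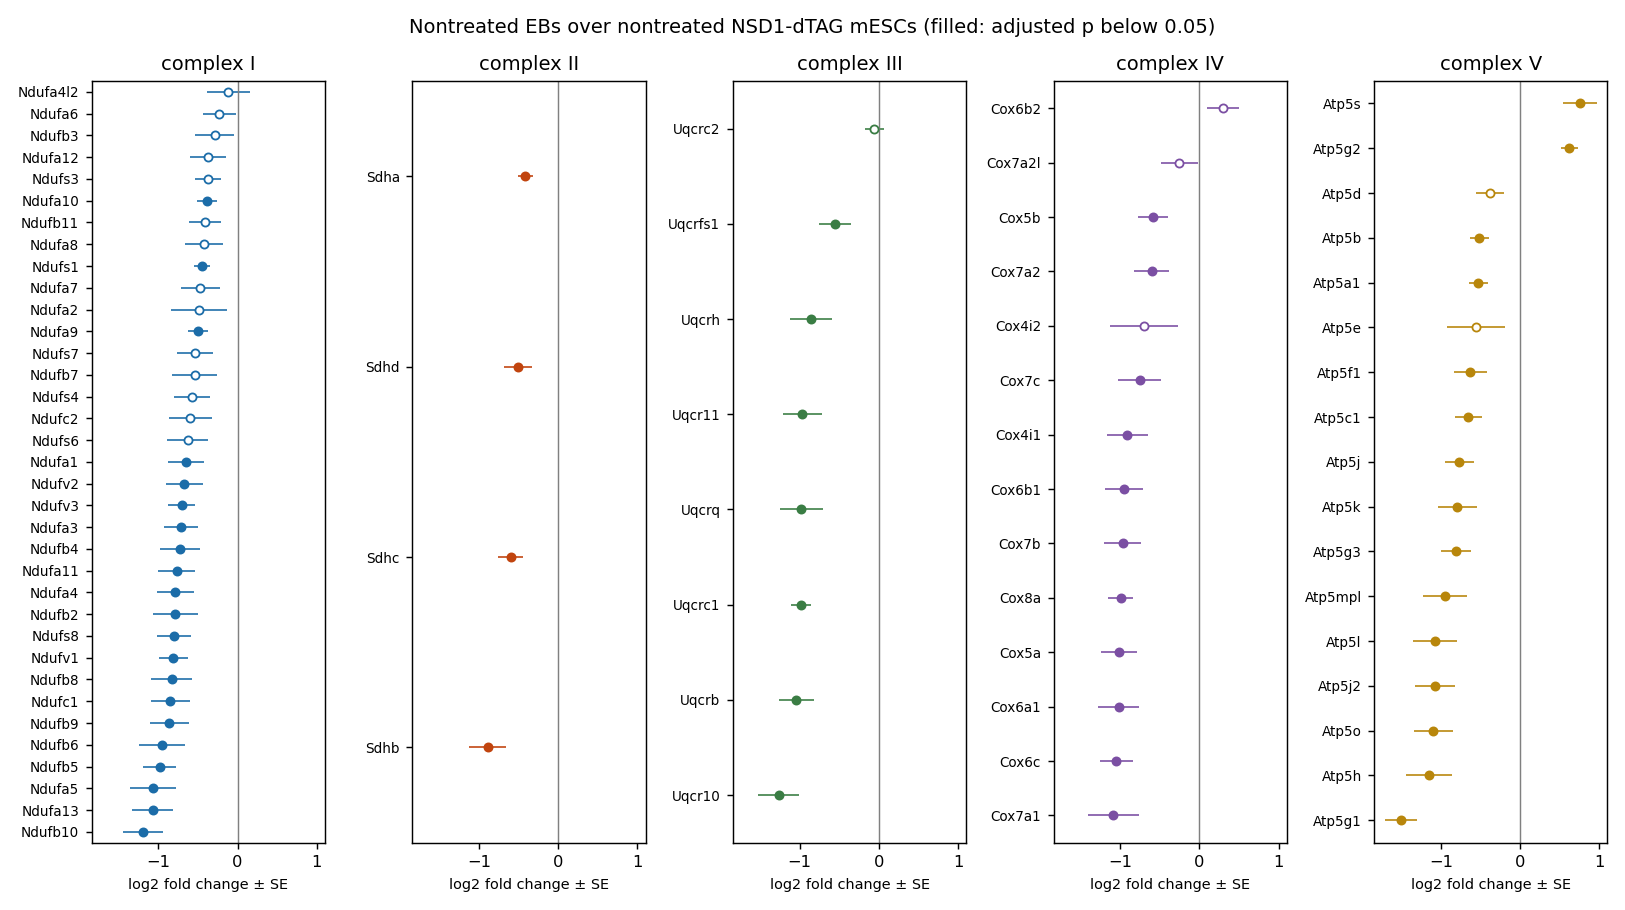
Log2 fold change (x axis, with error bars of 1 SE) of 78 of the 79 tested members (y axis) in nontreated EBs over nontreated NSD1-dTAG mESCs, by complex; filled points have an adjusted p below 0.05 in edgeR's quasi-likelihood test. Most points lie left of 0, between -1.51 for Atp5g1 and 0.76 for Atp5s.

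In complex I, 22 of 36 tested members were lower, with a median of -0.65. Among the 7 core subunits, which carry the redox centres, 5 were lower, and among the 29 tested accessory subunits 17 were lower. Ndufv1, which binds NADH and the flavin, had TPM-like levels of 170, 190 and 213 in nontreated EBs, against 313, 269 and 258 in NSD1-dTAG mESCs. The groups did not overlap, and Ndufv1 fell by 0.81 on the log2 scale (SE 0.18, adjusted p = 0.00481, edgeR). Ndufs1, which holds iron-sulfur clusters, moved less, at 70.9, 77.7 and 79.3 in nontreated EBs, against 80.6, 90.4 and 93.2 in NSD1-dTAG mESCs (log2 -0.45, SE 0.11, adjusted p = 0.00617). The largest fall of the complex was in Ndufb10, an accessory subunit of the membrane arm, with 130, 143 and 163 in nontreated EBs, against 354, 235 and 232 in NSD1-dTAG mESCs (log2 -1.19, SE 0.25, adjusted p = 0.00386). Ndufa4 was at 362, 385 and 435 in nontreated EBs, against 708, 491 and 492 in NSD1-dTAG mESCs (log2 -0.78, SE 0.23, adjusted p = 0.0179), a call that was lost without nontreated EB library 1 or library 2. For each of these 4 genes all nontreated EB libraries lay below all NSD1-dTAG mESC libraries.

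All 4 genes of complex II were lower, with a median of -0.55. Sdhb, the iron-sulfur subunit, was at 144, 162 and 185 in nontreated EBs, against 315, 224 and 217 in NSD1-dTAG mESCs, and fell by 0.89 on the log2 scale (SE 0.23, adjusted p = 0.0111, edgeR). Sdha, the flavoprotein subunit, was at 265, 278 and 260 in nontreated EBs, against 259, 327 and 328 in NSD1-dTAG mESCs. Its TPM-like levels overlapped, with NSD1-dTAG library 1 the lowest of all 6, while the fit, on the TMM scale, gave -0.42 (SE 0.09, adjusted p = 0.00533). The membrane anchors Sdhc and Sdhd had log2 values of -0.60 (adjusted p = 0.0113) and -0.51 (adjusted p = 0.0334). The call for Sdhd was lost in 4 of 16 alternative fits, among them those without nontreated EB library 1 or library 2.

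Complex III had the lowest median, -0.97, with 7 of 8 members lower. Uqcrc1, a core protein of the complex, was at 195, 206 and 211 in nontreated EBs, against 348, 334 and 338 in NSD1-dTAG mESCs. Within each group these values lay close together, and Uqcrc1 fell by 0.98 on the log2 scale (SE 0.13, adjusted p = 2.81e-04, edgeR). Uqcrc2, the other core protein, behaved differently and is named after its values were seen. It was at 313, 322 and 372 in nontreated EBs, against 258, 315 and 320 in NSD1-dTAG mESCs, and was not called (log2 -0.06, SE 0.12, adjusted p = 0.699). Its sign turned to 0.09 with library totals, and without the libraries that stood apart it was called lower at -0.18 (adjusted p = 0.00612). Uqcr10, a small subunit and the most abundant gene of the complex, had 368, 385 and 450 in nontreated EBs, against 1040, 683 and 666 in NSD1-dTAG mESCs (log2 -1.26, SE 0.26, adjusted p = 0.00304). Uqcrfs1, the Rieske iron-sulfur protein, had 367, 365 and 387 in nontreated EBs, against 549, 411 and 402 in NSD1-dTAG mESCs. Its call (log2 -0.55, SE 0.20, adjusted p = 0.0436) was lost in 6 of 16 alternative fits, among them those without each of the 3 nontreated EB libraries. Uqcrq, another small subunit, had a log2 value of -0.98 (adjusted p = 0.0139) and was not called without nontreated EB library 1 or library 2.

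In complex IV, 11 of 14 tested members were lower, with a median of -0.93. Cox4i1 and Cox5a, subunits expressed in most tissues, both fell. Cox4i1 was at 788, 784 and 921 in nontreated EBs, against 1702, 1087 and 1080 in NSD1-dTAG mESCs (log2 -0.91, SE 0.26, adjusted p = 0.016, edgeR). Its call was lost without nontreated EB library 1 (highest adjusted p over all alternatives 0.0619) and without library 2. Cox5a was at 351, 354 and 375 in nontreated EBs, against 756, 537 and 518 in NSD1-dTAG mESCs, and fell by 1.02 on the log2 scale (SE 0.22, adjusted p = 0.00444). For both genes every nontreated EB library lay below every NSD1-dTAG mESC library. Cox8a, a small subunit of the complex, was at 609, 664 and 739 in nontreated EBs, against 1201, 1124 and 1044 in NSD1-dTAG mESCs (log2 -0.99, SE 0.16, adjusted p = 8.54e-04).

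In complex V, 13 of 17 tested members were lower and 2 higher, with a median of -0.77. In the catalytic F1 part 3 of 5 were lower, and in the membrane part and stalk 10 of 11 were lower and 1 higher. Atp5b had 1578, 1671 and 1851 in nontreated EBs, against 1881, 2163 and 2149 in NSD1-dTAG mESCs (log2 -0.52, SE 0.12, adjusted p = 0.0071, edgeR). Atp5a1, the alpha subunit, and Atp5c1, the gamma subunit of the central stalk, had log2 values of -0.53 (SE 0.12, adjusted p = 0.00576) and -0.65 (SE 0.17, adjusted p = 0.011). The peripheral stalk genes spread widely. Atp5f1, its subunit b, had a log2 value of -0.63 (adjusted p = 0.028) and Atp5j, its subunit F6, one of -0.77 (adjusted p = 0.00613), both named after their values were seen. Atp5h, subunit d of the same stalk, was at 253, 266 and 292 in nontreated EBs, against 689, 400 and 392 in NSD1-dTAG mESCs (log2 -1.15, SE 0.29, adjusted p = 0.00889). Atp5o, which joins that stalk to F1, was at 129, 137 and 150 in nontreated EBs, against 317, 213 and 204 in NSD1-dTAG mESCs (log2 -1.09, SE 0.25, adjusted p = 0.00509). Atp5h and Atp5o share 36.9% and 25.6% of their 50-base windows with other genes. Atp5s was one of the members that rose, at 10.9, 9.83 and 8.35 in nontreated EBs, against 5.38, 4.36 and 4.56 in NSD1-dTAG mESCs (log2 0.76, SE 0.21, adjusted p = 0.0146). This gene codes for a factor associated with the ATP synthase rather than a structural subunit, and its call was lost in 3 of 16 alternative fits, those without nontreated EB library 1 and without NSD1-dTAG mESC library 2 or library 3.

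Over all 17 fits of this comparison, 32 members were called in every one: 8 of complex I, 3 of complex II, 4 of complex III, 6 of complex IV and 11 of complex V. Among the named ones were Ndufs1, Ndufv1, Sdha, Sdhb, Uqcrc1, Cox5a, Atp5a1, Atp5b, Atp5c1 and the 3 c subunit genes. How many of all genes were called in every fit is not given here, so the count of 32 has no share of all genes beside it. With all libraries and no block, edgeR alone called 26.3% of all genes lower and 33.1% higher.

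The c subunit of the ATP synthase, which forms the rotating ring of the membrane part, is encoded by Atp5g1, Atp5g2 and Atp5g3. The mature protein is the same from all of them, and they differ in the import peptide that is removed. These genes moved in opposite directions in EBs. Because they are separate genes for the same protein, their promoters are shown, as the bases upstream of the RefSeq start site in the GRCm38.p6 build, with bases inside annotated exons left out (39 for Atp5g1, 80 for Atp5g2 and 0 for Atp5g3). Atp5g1 is at chr11:96075671-96075881, Atp5g2 at chr15:102671128-102671297 and Atp5g3 at chr2:73911327-73911576, all on the minus strand, and none of the printed stretches held a motif that was searched. The stretches of Atp5g1 and Atp5g3 border the annotated span of their gene. That of Atp5g2 lies inside its gene's span, chr15:102662864-102672352, so it is not upstream of the outermost annotated start.
Atp5g1: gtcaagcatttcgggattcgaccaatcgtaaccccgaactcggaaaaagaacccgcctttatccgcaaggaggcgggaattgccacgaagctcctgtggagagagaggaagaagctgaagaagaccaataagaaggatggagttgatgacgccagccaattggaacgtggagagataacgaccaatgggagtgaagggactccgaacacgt
Atp5g2: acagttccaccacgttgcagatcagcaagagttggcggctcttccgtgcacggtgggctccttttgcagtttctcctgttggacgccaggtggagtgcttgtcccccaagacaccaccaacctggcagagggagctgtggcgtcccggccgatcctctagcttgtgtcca
Atp5g3: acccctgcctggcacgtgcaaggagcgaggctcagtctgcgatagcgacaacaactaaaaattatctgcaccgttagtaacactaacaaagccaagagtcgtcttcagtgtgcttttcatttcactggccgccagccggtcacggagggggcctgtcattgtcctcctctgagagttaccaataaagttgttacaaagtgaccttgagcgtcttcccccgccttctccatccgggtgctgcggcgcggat

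Atp5g1 (ENSMUSG00000006057.15, chr11:96068852-96075670, minus strand) had TPM-like levels of 31.0, 35.6 and 40.8 in nontreated EBs, against 97.7, 80.0 and 77.4 in NSD1-dTAG mESCs. It fell by 1.51 on the log2 scale (SE 0.20, adjusted p = 2.97e-04, edgeR), the lowest value of all members tested. Atp5g3 (ENSMUSG00000018770.9, chr2:73908447-73911326, minus strand), the most abundant of the 3, was at 479, 485 and 546 in nontreated EBs, against 856, 682 and 665 in NSD1-dTAG mESCs (log2 -0.80, SE 0.19, adjusted p = 0.00676). Atp5g2 (ENSMUSG00000062683.11, chr15:102662864-102672352, minus strand) was at 90.7, 97.6 and 101.6 in nontreated EBs, against 45.9, 58.3 and 56.5 in NSD1-dTAG mESCs, and rose by 0.62 (SE 0.11, adjusted p = 0.0015). For each gene all nontreated EB libraries lay on one side of all NSD1-dTAG mESC libraries, and all 3 calls held in each of the 16 alternative fits. Of the 50-base windows of Atp5g2 transcripts 38.3% occur in another gene, of Atp5g1 10.2% and of Atp5g3 0%.

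As shares of the 3 genes together, Atp5g2 made up 14.6 ± 1.06% in dTAG-13 EBs, 15.2 ± 0.525% in nontreated EBs, 6.26 ± 1.45% in nontreated NSD1-dTAG mESCs, 6.08 ± 0.432% in dTAG-13 WT mESCs and 6.10 ± 0.543% in nontreated WT mESCs (SD, n = 3 each). Atp5g1 went the other way, at 5.52 ± 0.172% in dTAG-13 EBs, 5.62 ± 0.406% in nontreated EBs and 9.74 ± 0.0433% in nontreated NSD1-dTAG mESCs. Atp5g3 kept the bulk in every group, from 79.2% on average in nontreated EBs to 84.6% in dTAG-13 WT mESCs. The 3 genes summed to 636 ± 46.4 in nontreated EBs and 873 ± 110 in nontreated NSD1-dTAG mESCs. The shares separated all 6 EB libraries from all 9 mESC libraries for each gene, and the shares of the 2 EB groups overlapped.

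**Figure D3:**
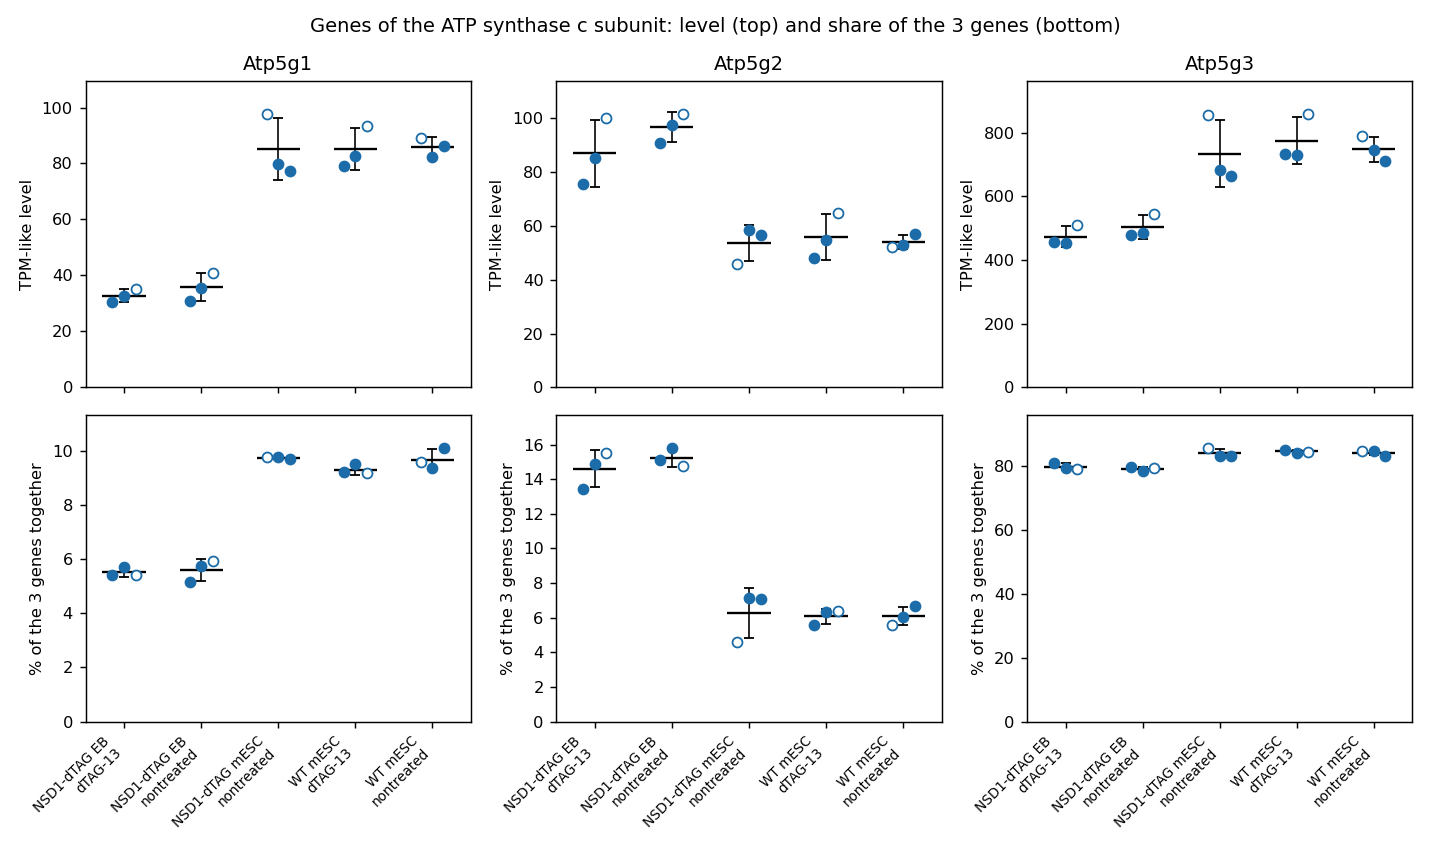
TPM-like level (top, y axis) and share of the 3 c subunit genes in percent (bottom, y axis) of Atp5g1, Atp5g2 and Atp5g3 in every library of the 5 groups (x axis); points are libraries, open points those that stood apart, lines means and error bars SD (n = 3). Atp5g2 averages 15.2% of the 3 in nontreated EBs and 6.26% in nontreated NSD1-dTAG mESCs, and Atp5g1 5.62% and 9.74%.

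Promoters of 66 of the 84 member symbols were matched in the RefSeq promoter table (GRCm38.p6), and the 250 bases before the start site were searched on both strands for 3 motifs. NRF1, a factor known for its sites in respiratory chain genes, binds a palindrome, the run of capitals in the sites printed below, which was found in 4 of the 66, or 6.06%, against 1.82% of the 10968 promoters of genes tested between EBs and mESCs. The ETS motif CCGGAAG, a core bound by the GABP factor, was in 12, or 18.2%, against 15.2%. The motif AAGATGGC of the factor YY1 was in 1, or 1.52%, against 2.41%. Of the 66 promoters 51 held none of the motifs. The members with an NRF1 match are shown with 10 bases on either side, the motif in capitals, because they moved in both directions: Atp5g2 rose in EBs, while Atp5k (log2 -0.80), Cox6a1 (log2 -1.02) and Ndufa11 (log2 -0.77) were lower. The stretches are chr15:102671070-102671099 (minus strand) for Atp5g2, chr5:108434430-108434459 (minus) for Atp5k, chr5:115349101-115349130 (minus) for Cox6a1 and chr17:56717692-56717721 (plus) for Ndufa11. The first motif base lies 42, 50, 162 and 60 bases before the start site in that order, and all but the stretch of Ndufa11 overlap an annotated exon.
Atp5g2: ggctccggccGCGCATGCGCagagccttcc
Atp5k: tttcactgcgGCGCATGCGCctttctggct
Cox6a1: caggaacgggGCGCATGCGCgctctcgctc
Ndufa11: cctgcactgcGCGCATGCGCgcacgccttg

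The tissue-restricted isoforms stayed minor genes in every group. Cox6b2, the testis isoform of the subunit that Cox6b1 encodes elsewhere, was at 54.3, 60.8 and 46.3 in nontreated EBs, against 42.5, 33.1 and 33.4 in NSD1-dTAG mESCs. It was not called (log2 0.30, SE 0.20, adjusted p = 0.229, edgeR), though every nontreated EB library lay above every NSD1-dTAG mESC library and 4 of 16 alternative fits called it higher, one of them without NSD1-dTAG mESC library 1. Without the libraries that stood apart its value was 0.61 (adjusted p = 0.00117). Its share of Cox6b1 and Cox6b2 together was 8.53 ± 2.38% in dTAG-13 EBs, 7.78 ± 1.47% in nontreated EBs and 3.45 ± 0.285% in nontreated NSD1-dTAG mESCs. Cox7a1, the heart and skeletal muscle isoform, was at 18.02, 17.3 and 19.3 in nontreated EBs, against 44.7, 25.6 and 24.7 in NSD1-dTAG mESCs (log2 -1.09, SE 0.33, adjusted p = 0.0198). The call was lost without nontreated EB library 1 or library 2 (highest adjusted p 0.0669). Cox4i2, known as the lung isoform, was at 2.24, 3.68 and 1.31 in nontreated EBs, against 4.24, 2.58 and 2.77 in NSD1-dTAG mESCs, and the groups overlapped (log2 -0.70, SE 0.43, adjusted p = 0.195).

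The other isoforms were close to 0. Summed over 3 libraries, the muscle isoform Cox6a2 had 26 counts in dTAG-13 EBs, 5 in nontreated EBs and 4 in nontreated NSD1-dTAG mESCs, and 5 and 3 in dTAG-13 and nontreated WT mESCs. Cox8b, also a muscle isoform, had 1 count in all 15 libraries, in a nontreated NSD1-dTAG mESC library. The testis isoform Cox8c had 5, 8 and 2 counts in dTAG-13 EBs, nontreated EBs and NSD1-dTAG mESCs. Cox7b2, another testis isoform, had 6, 6 and 24 counts in these groups, and 16 of the 24 were in NSD1-dTAG mESC library 1. A fit with no filter on low counts called Cox7b2 lower in nontreated EBs than in NSD1-dTAG mESCs, at -2.09 (SE 0.73, adjusted p = 0.0332, edgeR), where 15.2% of all genes were called lower. That fit was not run without library 1.

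**Figure D4:**
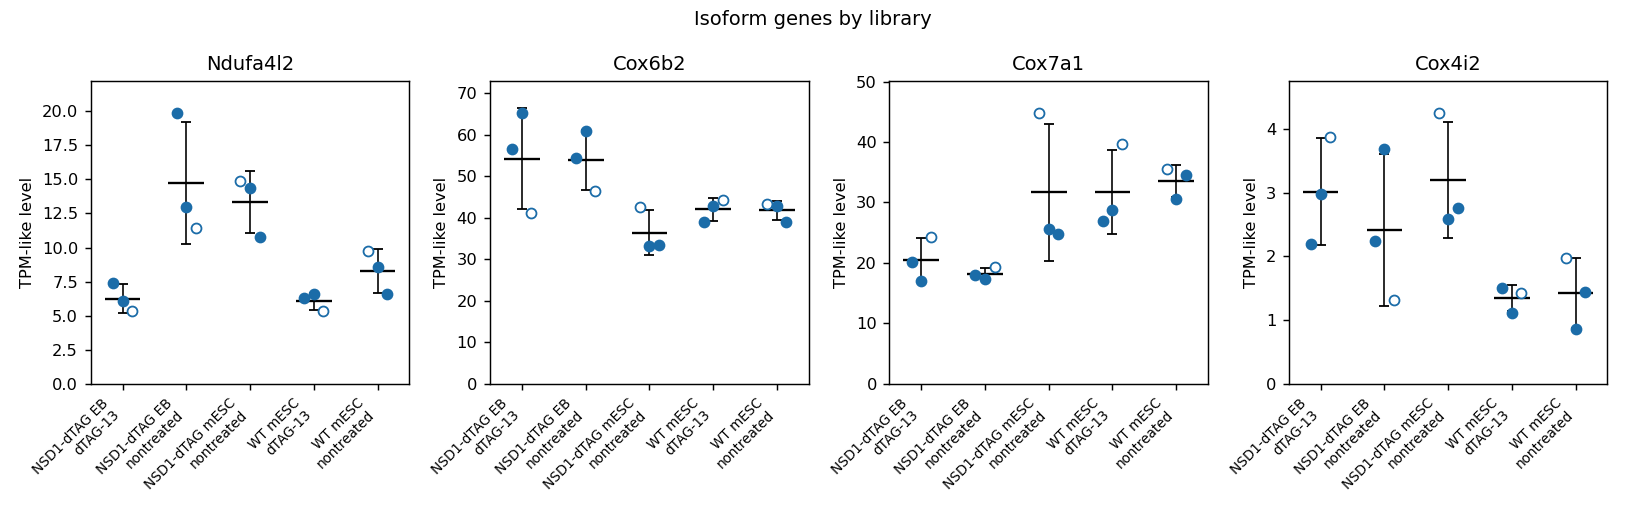
TPM-like level (y axis) of the isoform genes Ndufa4l2, Cox6b2, Cox7a1 and Cox4i2 in every library of the 5 groups (x axis); points are libraries, open points those that stood apart, lines means and error bars SD (n = 3). The 3 dTAG-13 EB libraries lie between 5.33 and 7.37 for Ndufa4l2, all below the 3 nontreated EB libraries.

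In EBs of the tagged line, dTAG-13 was compared with no treatment to see how the genes change when the drug is present throughout differentiation. Among the 79 members 1 was called lower by edgeR, Ndufa4l2, and 0 were called higher, also at an unadjusted p below 0.05. Of all 15236 genes tested, 2.78% were called lower and 3.98% higher. The members' median was -0.05, against -0.01 over all genes, and 61 of 79 lay below 0. The medians of complexes I to V were -0.04, -0.05, -0.09, -0.06 and -0.10. The complexes thus lay within 0.10 of 0, where the same libraries of nontreated EBs differed from mESCs by 0.55 or more.

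Ndufa4l2 (ENSMUSG00000040280.10, chr10:127514967-127517154, plus strand) codes for a relative of Ndufa4 that is known as a target of the hypoxia factor HIF-1. Its TPM-like level was 7.37, 6.05 and 5.33 in dTAG-13 EBs, against 19.8, 13.01 and 11.4 in nontreated EBs, from 148 and 365 counts in all. The groups did not overlap, and the fit gave a log2 fold change of -1.26 (SE 0.25, adjusted p = 0.0257, edgeR). Over the alternative fits the value lay between -1.386 and -0.997 and the adjusted p between 5.48e-04 and 0.0881. The call was lost without nontreated EB library 1 or 2 and without dTAG-13 EB library 1 or 2. As a share of Ndufa4 and Ndufa4l2 together it made up 1.57 ± 0.377% in dTAG-13 EBs and 3.67 ± 1.37% in nontreated EBs (SD, n = 3 each). Exons of Ndufa4l2 share 32 bases with Shmt2, a highly expressed gene on the opposite strand, which had a log2 value of -0.34 in this comparison (adjusted p = 0.0779). The part of Shmt2 reads in the result was not tested.

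Ndufa4l2 was also the member with the smallest p in both mESC comparisons, without passing the threshold in either with all libraries in the fit and no replicate block. In dTAG-13 WT mESCs it was at 6.26, 6.56 and 5.36, against 9.73, 8.59 and 6.56 in nontreated WT mESCs (log2 -0.48, SE 0.18, adjusted p = 1, edgeR). In nontreated NSD1-dTAG mESCs it was at 14.9, 14.4 and 10.7, against the same WT values (log2 0.78, SE 0.24, adjusted p = 0.187). With the replicate block it was called higher there, at 0.80 (adjusted p = 0.0189), as it was without the libraries that stood apart, at 0.74 (adjusted p = 0.00491). Between nontreated EBs and NSD1-dTAG mESCs it was not called (log2 -0.12, SE 0.27, adjusted p = 0.727). The effect of dTAG-13 in EBs minus that in WT mESCs was -0.80 (SE 0.32, adjusted p = 0.257), so the effects were not shown to differ. Cell state, line and exposure time differ together between these effects.

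Cox6a2 (ENSMUSG00000030785.8, chr7:128205435-128206387, minus strand), the muscle isoform below the count filter, had 7, 10 and 9 counts in dTAG-13 EBs, against 2, 2 and 1 in nontreated EBs. The groups did not overlap, and a fit with no filter on low counts called it higher at 2.34 (SE 0.62, adjusted p = 0.0302, edgeR), where 2.85% of all genes were called higher. In the fit with the count filter, which tested 6 of 11 muscle markers, none was called higher and the list median was 0.37. The actin gene Actc1 was the only one called lower, at -0.92, where 2.78% of all genes were. With no filter, the effect of dTAG-13 on Cox6a2 in EBs minus that in WT mESCs was 1.66 (adjusted p = 0.896, edgeR).

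Of the other members none passed in dTAG-13 EBs. Without the libraries that stood apart, 4 of 79 members were lower, against 10.2% of all genes tested. They were Ndufa4l2 at -1.32, Cox5a at -0.19 (adjusted p = 0.0498, edgeR) and the accessory subunits Ndufa3 at -0.31 (adjusted p = 0.0315) and Ndufa9 at -0.21 (adjusted p = 0.0357), the last pair chosen after their values were seen. The c subunit genes had log2 values of -0.15 for Atp5g1, -0.17 for Atp5g2 and -0.11 for Atp5g3 with all libraries in the fit, and none was called by edgeR. Cox7a1 was at 20.2, 17.0 and 24.3 in dTAG-13 EBs, against 18.02, 17.3 and 19.3 in nontreated EBs, and the groups overlapped. Markers of the cell types in the EBs did differ between these groups: germ cell and testis markers summed to 514 to 597 TPM-like in dTAG-13 EBs and 115 to 161 in nontreated EBs, with 4 of 4 tested markers called higher, against 3.98% of all genes. Epiblast and streak markers summed to 238 to 534 in dTAG-13 EBs and 730 to 1438 in nontreated EBs, with 2 of 5 called lower, against 2.78% of all genes. Of 7 markers of undifferentiated mESCs 4 were called lower, Nanog, Zfp42, Esrrb and Klf4, with a list median of -0.74, and 5 were without the libraries that stood apart. Muscle markers summed to 22.2 to 29.1 in dTAG-13 EBs and 24.3 to 31.7 in nontreated EBs. The part of these cell types in the values of the isoforms was not tested.

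NSD1-dTAG mESCs were set against WT mESCs to see how the knock-in line differed before any drug. None of 79 members was called, and 3 had an unadjusted p below 0.05, by edgeR's quasi-likelihood test. DESeq2 and limma-voom called 0 as well. Of all 13895 genes tested edgeR called 1.86%, DESeq2 4.58% and limma-voom 1.9%. The members' median was 0.23, against 0.01 over all genes, and 75 of 79 lay above 0. This displacement moved with 1 library: without NSD1-dTAG library 1 the median was -0.06, and without all libraries that stood apart it was 0.01.

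The smallest p-values after Ndufa4l2 were those of Cox4i2 and Cox8a. Cox4i2 was at 4.24, 2.58 and 2.77 in NSD1-dTAG mESCs, against 1.97, 0.865 and 1.44 in nontreated WT mESCs (log2 1.27, adjusted p = 0.229, edgeR). The counts behind this were 63 and 24. Cox8a, the complex IV subunit gene expressed in most tissues, had a log2 value of 0.39 (adjusted p = 0.248). Same-numbered libraries of these groups deviated together, but library 1 stood apart in both, so this cannot tell whether the libraries were paired. With the replicate block the 3 genes were called higher: Ndufa4l2 as given above, Cox4i2 at 1.3 (adjusted p = 0.0483) and Cox8a at 0.37 (adjusted p = 0.0486). That fit called 2.1% of all genes higher. When gene length was corrected in the blocked fit, 3 members were also higher, Cox8a, Ndufa4l2 and Ndufa3, against 4.4% of all genes. Without the libraries that stood apart 8 members were higher and 4 lower, against 11.5% and 11.2% of all genes.

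In WT mESCs, which carry no tag, dTAG-13 was compared with no treatment to show what the drug does by itself. None of 78 members was called, 1 had an unadjusted p below 0.05 by edgeR's quasi-likelihood test, and DESeq2 and limma-voom called 0. Of all 13784 genes tested 0% were called by any of these tools. The members' median was 0.03, against -0.01 over all genes. After Ndufa4l2 the smallest p-values were those of Ndufb4, an accessory subunit of complex I (log2 -0.19), and Cox8a (log2 0.13), both with an adjusted p of 1.

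For the difference between the effects of dTAG-13 in EBs and in WT mESCs none of 79 members was called and 1 had an unadjusted p below 0.05. DESeq2 called 0 as well. Of all 15855 genes tested, edgeR's quasi-likelihood test called 2.88% and DESeq2 5.04%. The members' median was -0.10. Without the libraries that stood apart 5 were lower, against 6.03% of all genes.

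**Figure D5:**
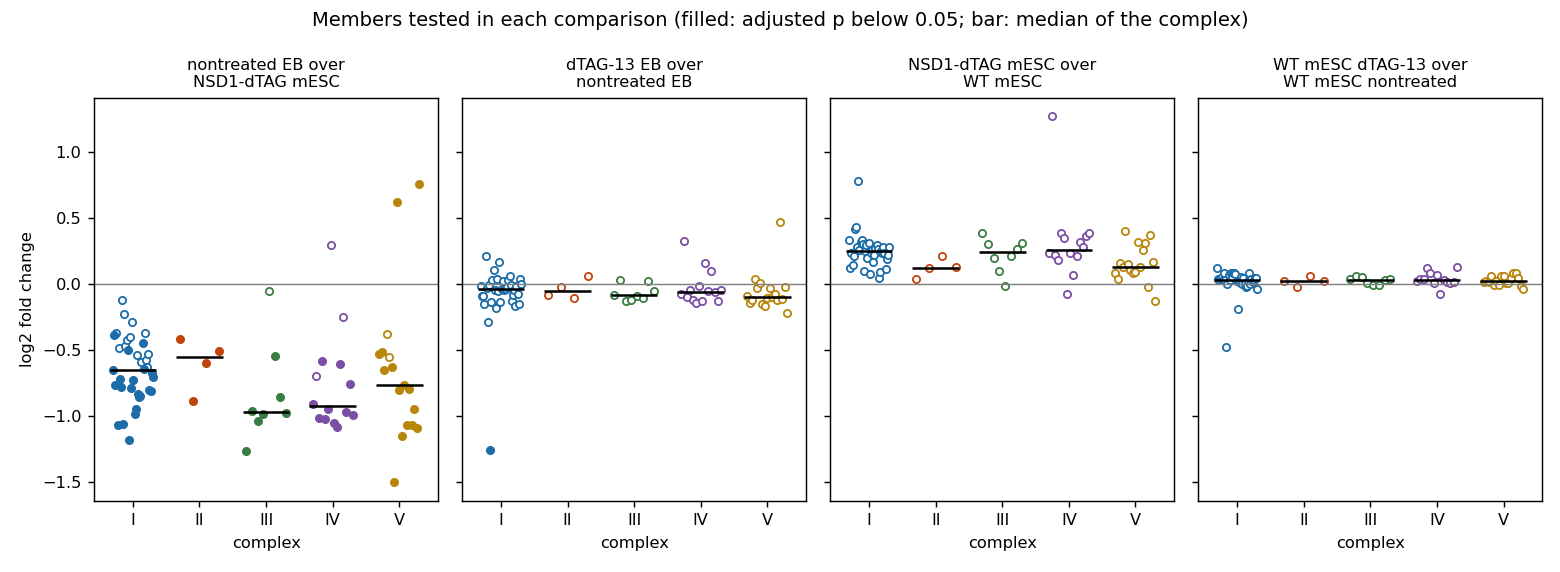
Log2 fold change (y axis) of every tested member by complex (x axis) in each of the 4 comparisons; filled points have an adjusted p below 0.05 in edgeR's quasi-likelihood test and black bars are the medians of the complex. The medians lie between -0.97 and -0.55 for EBs over NSD1-dTAG mESCs and between -0.10 and -0.04 for dTAG-13 EBs over nontreated EBs.

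The 13 subunits encoded by the mitochondrial genome were followed beside the nuclear ones. Of these, 7 passed the filter, and why the rest had too few counts was not tested. All 7 were lower in nontreated EBs than in NSD1-dTAG mESCs, with a median of -1.90. Of all genes tested, 26.3% were called lower there. The first by p were the complex I genes mt-Nd6 at -2.84 (adjusted p = 8.49e-05, edgeR), mt-Nd1 at -2.48 (adjusted p = 0.00189) and mt-Nd2 at -1.87 (adjusted p = 0.0045). In total they made up 0.753, 0.388 and 0.177% of gene counts in nontreated EBs, against 1.43, 1.71 and 1.66% in NSD1-dTAG mESCs. In dTAG-13 EBs the shares were 0.977, 1.02 and 0.194%, with a median log2 value of 0.71 over nontreated EBs. By edgeR none of the 7 was called, and 0 had an unadjusted p below 0.05. In both EB groups the library that stood apart had the lowest share, and without those libraries 4 of 7 were called higher in dTAG-13 EBs, where 10.7% of all genes were.

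Other genes of the pathway were compared between nontreated EBs and NSD1-dTAG mESCs, where 33.1% of all genes tested were called higher and 26.3% lower. Of 10 electron carriers and subunits outside the symbol rule 3 were higher and 3 lower, a share near that of all genes, with a median of 0.08. The higher ones were 2 ADP/ATP carriers, Slc25a4 at 1.73 (adjusted p = 1.06e-04, edgeR) and the germ cell form Slc25a31 at 1.68 (adjusted p = 0.00448), and Etfdh, which passes electrons from flavoproteins to ubiquinone, at 0.81 (adjusted p = 3.14e-04). The lower ones, named after their values were seen, were Etfb, a subunit of the electron transfer flavoprotein, at -1.26 (adjusted p = 0.0139), the phosphate carrier Slc25a3 at -0.42 (adjusted p = 0.0444) and the cytochrome c1 gene Cyc1 at -0.38 (adjusted p = 0.0292). Cyc1 codes for a complex III subunit whose symbol the member rule does not match. Slc25a4 was at 429, 549 and 479 in nontreated EBs, against 140, 120 and 106 in NSD1-dTAG mESCs, which did not overlap. Slc25a31 was also higher in dTAG-13 EBs than in nontreated EBs, at 1.31 (adjusted p = 0.0499), from TPM-like levels of 3.18, 2.01 and 3.87 in dTAG-13 EBs, against 1.404, 1.116 and 1.091 in nontreated EBs.

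Among assembly factors for complex I, 2 of 16 were higher and 4 lower, against 33.1% and 26.3% of all genes tested, with a median of -0.16. The share called lower was near that of all genes. The first by p were Foxred1 (-0.68, adjusted p = 0.00109), Ndufaf5 (-1.23, adjusted p = 0.00141) and Ndufaf1 (-0.79), by edgeR's quasi-likelihood test. For complexes II to V, 1 of 31 was higher and 12 were lower, against the same shares of all genes, with a median of -0.32. Here the copper chaperone Sco1 was at -0.88 (adjusted p = 1.69e-04), the mitochondrial RNA-binding protein gene Lrpprc at -0.68 (adjusted p = 4.13e-04) and the ATP synthase assembly factor Atpaf2 at -0.65 (adjusted p = 0.0018). In dTAG-13 EBs over nontreated EBs edgeR called 0 of the 47 assembly factors, and 3 had an unadjusted p below 0.05.

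Of 18 genes of pyruvate dehydrogenase and the citric acid cycle 1 was higher and 6 lower in nontreated EBs, against 33.1% and 26.3% of all genes tested, with a median of -0.23. The one that rose was Suclg2, the GDP-forming succinyl-CoA ligase subunit, at 44.2, 44.7 and 42.8 in nontreated EBs, against 5.56, 7.42 and 7.26 in NSD1-dTAG mESCs (log2 2.47, SE 0.11, adjusted p = 1.1e-06, edgeR). Citrate synthase, Cs, was lower at -0.53 (adjusted p = 0.0029), and so was Pdhx at -0.57. Suclg2 was also the list's only call between NSD1-dTAG and WT mESCs, at -0.93 (adjusted p = 0.0113). Of 11 coenzyme Q genes 1 was higher, Coq2 at 1.25 (adjusted p = 9.34e-05), and 3 were lower, about the share of all genes called lower, among them Coq8b at -0.93 and Pdss1 at -1.19.

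Of 15 tested regulators of mitochondrial gene expression 3 were higher and 6 lower in nontreated EBs, against 33.1% and 26.3% of all genes tested, with a median of -0.09. Esrrb, an estrogen-related receptor that also belongs to the mESC network, was at -2.19 (adjusted p = 2.55e-05, edgeR), Gabpa, a subunit of GABP, at -0.79 (adjusted p = 5.08e-04) and Polg, the mitochondrial DNA polymerase, at 0.87 (adjusted p = 5.35e-04). Gabpa overlaps exons of the member Atp5j on the opposite strand. Esrrb was the one regulator called in dTAG-13 EBs over nontreated EBs, at -0.83 (adjusted p = 0.0346).

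The labelled cell states were checked by their markers. The 7 mESC markers summed to 2026 to 2329 TPM-like in dTAG-13 EBs, 2615 to 2716 in nontreated EBs and 5242 to 5598 over the 9 mESC libraries. All 7 were called lower in nontreated EBs than in NSD1-dTAG mESCs, against 26.3% of all genes tested. All 5 epiblast and streak markers and all 5 visceral endoderm markers were called higher in nontreated EBs, against 33.1% of all genes. Visceral endoderm markers summed to 57.7 to 215 in dTAG-13 EBs and 91.6 to 172 in nontreated EBs, against 0.118 to 0.758 in NSD1-dTAG mESCs.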

How the data were processed

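Polyadenylated RNA was sequenced from 15 libraries with a strand-specific kit and ERCC Mix 1 spike-ins, per the labels' protocols. The values used are raw read counts per gene as deposited. STAR, bcl2fastq (2.20.0.422), DESeq2 (1.30.0) and the genome builds mm10 and GRCm38.p6 appear, with no roles, per the submitters' processing notes. How reads were counted, with which annotation and on which strand, is not given in the sources used here. Gene symbols, types and exons came from GENCODE M21, which matched 55230 of 55471 IDs and left 241 unmatched. ERCC counts, which were 0 in the EB libraries, stayed out of totals.

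Differences came from edgeR 4.0.16 (R 4.3.3) quasi-likelihood F tests of the libraries of each comparison, with TMM factors. Genes were kept by filterByExpr, with Benjamini-Hochberg adjustment over all genes tested. The fitting code was also run on simulated counts in which no library stood apart. That run therefore cannot show the error rates of the fits in these data. An SE is the absolute log2 fold change divided by the square root of F. TPM-like levels are counts per kilobase of merged exon, scaled to 1000000 per library, and library totals were 18704591 to 29103958. Alternatives were DESeq2 1.42.0, limma 3.58.1 voom, other scalings including ERCC, no filter, a replicate block, a gene-length offset, all 15 libraries in 1 fit and libraries left out. Scaling by library totals, and leaving out the libraries that stood apart from the summed levels, were chosen after seeing the data. Tables were made with pandas 2.3.3 and numpy 2.4.6 in Python 3.11.15, and figures with matplotlib 3.10.9.

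Libraries with the same replicate number deviated together between NSD1-dTAG and WT mESCs (r = 0.425, 0.188 and 0.167) and between the EB groups (r = 0.211, 0.241 and 0.362). In both comparisons the libraries that stood apart share a number. Different numbers also correlated, at 0.145 for NSD1-dTAG library 2 with WT library 3. For dTAG-13 in WT mESCs the libraries that stood apart differ in number, 3 and 1, and correlated at 0.296. The correlation thus cannot tell pairing from a shared departure of such libraries. Blocked values stand beside the results they change. Same-numbered libraries did not deviate together in the other comparisons. Apart from core subunits and isoforms, the genes named were the 5 largest called rises and falls of a comparison or its 3 smallest p-values, the highest and lowest member of each complex, and up to 3 genes of other lists. A result on 1 member is not reported here, but its values are part of all counts, medians and sums. The members and lists were chosen with earlier results of these data known.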

Additional observations from a re-analysis of the deposited data

Results flagged for a closer look

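Cox6a2, the heart and skeletal muscle isoform of a complex IV subunit, fell below the count filter, so the main fits did not include it. The fit with no filter did, and called it higher in dTAG-13 EBs, as given above. It had 26 counts over the 3 dTAG-13 EB libraries, against 5 over the 3 nontreated EB libraries. It was pointed out because a signal above the controls appeared in data that the main fits left out. The TPM-like level was 1.76 ± 0.272 in dTAG-13 EBs and 0.326 ± 0.118 in nontreated EBs (SD, n = 3 each).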

How the results depend on the processing

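Of 2147 values of 125 named results under alternatives, 2104 stayed on the same side of the threshold, 25 lost a call, 16 gained one and 2 turned round. Of the 2104, 176 changed sign without being called under either setting. Those 2 were Sdhb at -0.1028 (adjusted p = 0.0288) and Atp5g3 at -0.087 (adjusted p = 0.036), both between NSD1-dTAG and WT mESCs without the libraries that stood apart, and the cause was not tested. In that comparison 3 members were higher with the replicate block, 3 when the blocked fit also corrected for gene length, and 8 higher and 4 lower without those libraries. Leaving out 1 library of nontreated EBs or NSD1-dTAG mESCs gave 31 to 63 lower and 1 to 3 higher members between these groups. The replicate block gave 48 lower, though same-numbered libraries of these groups did not deviate together. With all libraries and no block, edgeR called 26.3% of all genes lower there, and without nontreated EB library 1 it called 20.9%. The share of all genes called with the block is not given here. Nor is that without an NSD1-dTAG mESC library or without nontreated EB library 3, so those counts have no share beside them. Between dTAG-13 and nontreated EBs, leaving out 1 library gave 0 to 1 lower members, no filter gave 1 higher and the libraries that stood apart, when left out, 4 lower, while the replicate block changed no call there. For the difference of the 2 dTAG-13 effects 5 were lower without them. ERCC scaling could not be run for EBs. Low counts limit Cox4i2, Ndufa4l2, Ndufs5 and the muscle and testis isoforms. Each group has 3 libraries, of which 1 stood apart.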
